A study of Canis lupus familiaris with 12 samples.

Results

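RNASeq of MDCKII cells, an epithelial line from dog kidney, was used to compare CGN/CGNL1 double-KO cells (line 21D3) with CGNL1-KO cells (line 22), that is, to ask which mRNAs differ when cingulin (CGN) is lost in addition to paracingulin (CGNL1). The comparison was defined by genotype and not by measured values, and it holds 6 of the 12 libraries of the study, 3 of each line. Of the 13672 genes listed, the 12650 genes above 1 CPM (reads per gene scaled to a common library size) in at least 3 of the 12 libraries were tested. Both lines were made by CRISPR/Cas9 editing, lack intact CGNL1 by their labels, and received no treatment. Each is 1 clonal line, so that the loss of CGN cannot be told apart from other properties of these clones. The other libraries were 3 of WT cells and 3 of CGN-KO cells (line 1G8), which provide the loss of CGN in cells whose labels name no loss of CGNL1. Of the double-KO libraries, 2 carry the replicate numbers 2 and 3 in the deposited columns, and the column of the remaining library has no number, so it is called unnumbered here.

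CGN and CGNL1 are related coiled-coil proteins of the cytoplasmic side of epithelial junctions. CGN is found at tight junctions, the belt that seals the space between epithelial cells, and CGNL1 at tight and adherens junctions. Both bind the scaffold ZO-1 and nonmuscle myosin-2 (NM2), the motor that tenses the actin belt beneath the junctions, and CGN also binds regulators of RhoA, the GTPase that activates this myosin.

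The recovered reads per library numbered 17511571 to 24240796 in double-KO and 17374607 to 22493492 in CGNL1-KO cells. Replicate 1 of CGNL1-KO stood farther from its group than any other of these 6 libraries (median absolute log2 difference of 0.162 from replicate 2, against 0.0751 to 0.0877 between double-KO libraries), and the counts of called genes are also given without it. All 9 markers of renal tubule epithelium, among them CDH1, PAX8, EPCAM, and KRT8, were expressed, with a summed level of 9750 to 10143 CPM in double-KO and 10166 to 10510 CPM in CGNL1-KO libraries. AQP2, the water channel that defines collecting duct principal cells, and LRP2 and SLC34A1, which define the proximal tubule, were not among the genes listed. Their levels could not be compared, and the cells were not assigned to 1 tubule segment. No source states that the libraries of a line came from separate cultures, so the p-values measure the spread between these libraries, which may be technical.

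The CGN mRNA level was 41.6 CPM in the unnumbered library, 45.3 CPM in replicate 2, and 39.7 CPM in replicate 3 of double-KO cells. In CGNL1-KO cells it was 213, 202, and 198 CPM in replicates 1 to 3. The groups did not overlap, and the double-KO mean was 20.7% of the CGNL1-KO mean (log2 difference of -2.25 ± 0.08 (SE), adjusted p = 1.39e-11 by limma with Benjamini-Hochberg adjustment). By exact permutation over the libraries (two-sided) p was 0.1, the smallest value possible with 3 against 3. The CGNL1-KO line had 95.2% of the WT level of CGN, and the CGN-KO line had 23.6%. CGNL1 mRNA was scarce in both lines, with 1.11, 1.76, and 1.58 CPM in the double-KO libraries and 3.02, 1.76, and 2.25 CPM in the CGNL1-KO libraries. These values overlapped, and no difference in CGNL1 was detected (log2 difference of -0.42 ± 0.17 (SE), adjusted p = 0.12). The exact permutation test gave p = 0.2. Without CGNL1-KO replicate 2 the adjusted p was 0.0472. In CGN-KO libraries CGNL1 was at 6.92, 5.04, and 6.02 CPM, below the 12.3, 9.22, and 7.74 CPM of the WT libraries. The CGN-KO mean of CGNL1 was 61.6% of the WT mean. Residual mRNA does not show whether protein was made.

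In double-KO cells, 61 genes fell and 27 rose at least 2-fold (0.482% and 0.213% of the genes tested) relative to CGNL1-KO cells. A gene was called when its adjusted p was below 0.05 and its difference on the log2(CPM + 1) scale was at least 1, a scale that understates changes of scarce genes. The genes that fell were led by secreted proteins of inflammation and matrix breakdown (MMP13, MMP9, CCL2, CCL20, CCL7, and CXCL8), the transcription factor TFAP2A, and the phosphodiesterase PDE1A, beside CGN itself. The genes that rose were led by FBP2, a gluconeogenic enzyme, TRPA1, a cation channel, and BASP1, a membrane-bound cytoskeletal protein. All 88 genes had values that did not overlap between the lines, as did 31.8% of all genes tested. At any fold, 1027 genes were higher (8.12%) and 796 were lower (6.29%) in double-KO cells. No gene with a 2-fold difference missed the adjusted p, so the fold threshold set the number of calls. Without CGNL1-KO replicate 1, 81 genes were called, 34 higher and 47 lower, of which 70 were among the 88. Of the 88 genes, 24 averaged under 5 CPM in both lines, 20 lower and 4 higher.

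**Figure D1:**
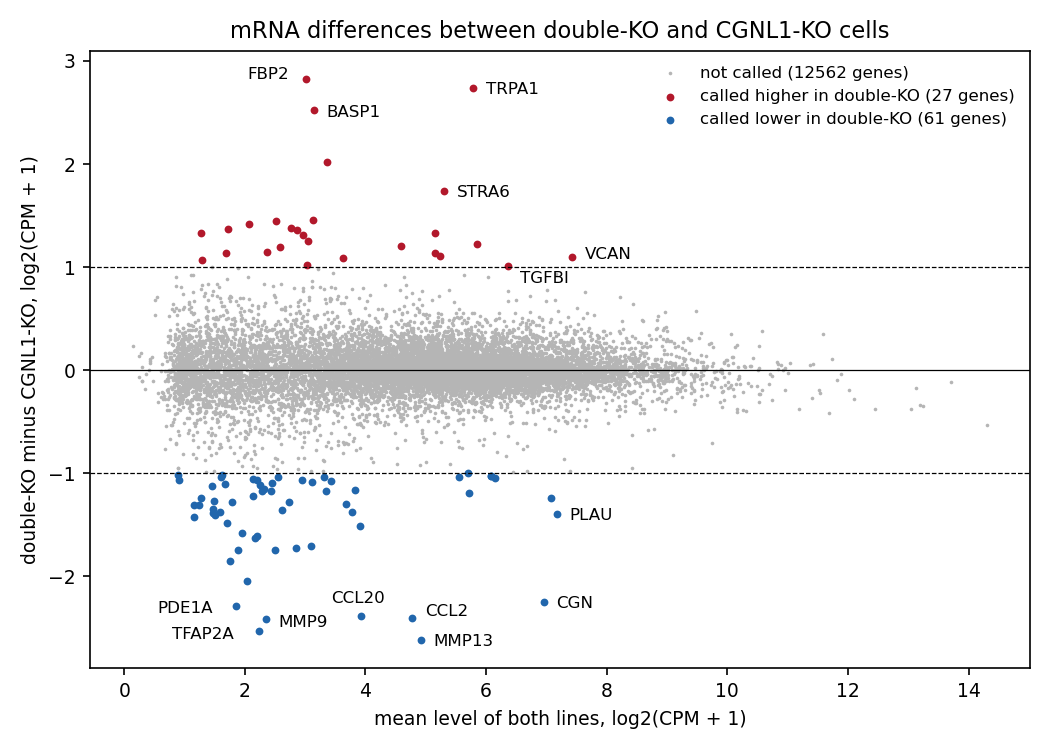
Each point is 1 of the 12650 genes, with its mean level over both lines on the horizontal axis (log2(CPM + 1)) and the difference of double-KO minus CGNL1-KO on the vertical axis (same scale, dashed lines at the 2-fold threshold). The 61 called lower genes reach -2.62 (MMP13) and the 27 called higher genes reach 2.83 (FBP2).

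Chemokines, the secreted signals that recruit leukocytes, made up 5 of the 6 genes called lower in the list of cytokines, chemokines, and their regulators. The chemokine CCL17, chosen after its values were seen, was higher instead, by less than 2-fold (98.1 against 74.3 CPM, adjusted p = 5.40e-04). The level of CCL2, which attracts monocytes, was 7.56, 6.03, and 9.62 CPM in the double-KO libraries (unnumbered, 2, and 3) and 44.5, 38.5, and 52.2 CPM in the CGNL1-KO libraries (1 to 3). CCL20, which attracts cells with the receptor CCR6, was at 4.17, 3.07, and 4.14 CPM against 31.3, 17.5, and 24.7 CPM. CCL7, a relative of CCL2, was at 0.727, 0.512, and 0.568 CPM against 5.40, 5.24, and 6.21 CPM. Every double-KO library was below every CGNL1-KO library for each of these genes, and the CGNL1-KO mean was 5.82-fold, 6.46-fold, and 9.32-fold higher for CCL2, CCL20, and CCL7 (adjusted p = 6.91e-09, 3.82e-08, and 2.14e-08). CXCL8, which attracts neutrophils, was at 0.775, 0.398, and 0.934 CPM against 4.70, 3.75, and 5.62 CPM. CXCL10, an interferon-induced chemokine, was at 0.533, 0.967, and 0.609 CPM against 5.28, 3.34, and 2.89 CPM. Both fell (log2 difference of -1.74 ± 0.17 and -1.48 ± 0.17, adjusted p = 6.02e-06 and 1.88e-05).

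NFKBIA, which encodes the inhibitor of NF-κB and is itself a target of NF-κB, was at 41.5, 43.3, and 45.7 CPM in double-KO and 94.7, 83.1, and 90.6 CPM in CGNL1-KO libraries (log2 difference of -1.02 ± 0.06, adjusted p = 3.22e-08). This gene lay just past the fold threshold and was below it without CGNL1-KO replicate 1 or without the unnumbered library. TNFAIP3, another inhibitor and target of NF-κB, averaged 19.7 against 38.0 CPM (log2 difference of -0.92, adjusted p = 1.78e-05). BIRC3, an apoptosis inhibitor of the same pathway, averaged 45.3 against 94.7 CPM and fell (log2 difference of -1.05 ± 0.09), although not by 2-fold without double-KO replicate 2. TNFAIP3, BIRC3, CSF2, and LIF were chosen after their values were seen. Of the 32 cytokines, chemokines, receptors, and NF-κB regulators tested, 16 were lower (50%) and 5 were higher (15.6%) at any fold, against 6.29% and 8.12% of all genes. Their median log2 difference was -0.32, against 0.0021 over all genes tested. The median of these 32 genes relative to WT was 0.31, 0.24, and 0.34 in the CGNL1-KO libraries and -0.11, -0.19, and -0.11 in the double-KO libraries. The lower genes also included the growth factors CSF2 (27.4 against 42.5 CPM) and LIF (121 against 169 CPM). The count of lower genes was 12 to 16 when 1 library was left out, and that of higher genes was 3 without CGNL1-KO replicate 2 or 3, without the unnumbered library, or without double-KO replicate 2.

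The 2 genes of this list that were called higher encode receptors. IL7R, the receptor subunit for interleukin 7, was at 3.68, 3.70, and 3.82 CPM in double-KO and 0.580, 1.17, and 0.803 CPM in CGNL1-KO libraries (log2 difference of 1.37 ± 0.15, adjusted p = 1.48e-05). ACKR3, a scavenger receptor for the chemokine CXCL12, was at 70.2, 82.5, and 87.7 CPM against 35.7, 31.1, and 34.2 CPM (1.22 ± 0.10, adjusted p = 7.76e-07). The groups were apart for both receptors. IL13RA2, a decoy receptor for interleukin 13 that was chosen after its values were seen, fell instead (7.54 against 18.8 CPM), but was under the 2-fold threshold without CGNL1-KO replicate 1.

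Markers of other cell types were set beside these genes. Of 5 leukocyte markers 2 were listed, with a summed level of 7.05 to 8.14 CPM in double-KO and 10.1 to 12.3 CPM in CGNL1-KO libraries, and the one that differed was CD14, the lipopolysaccharide coreceptor, at 6.397 against 10.5 CPM (adjusted p = 0.00295). Of 5 endothelial markers 2 were listed, with a summed level of 0.690 to 0.853 CPM against 2.51 to 2.98 CPM, and KDR, a receptor for VEGF and the marker that could be tested, fell (0.208 against 2.24 CPM). The defining markers PTPRC, CD3E, PECAM1, and CDH5 were not among the genes listed, so their levels could not be compared. The part of these cell types in the differences was not tested.

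**Figure D2:**
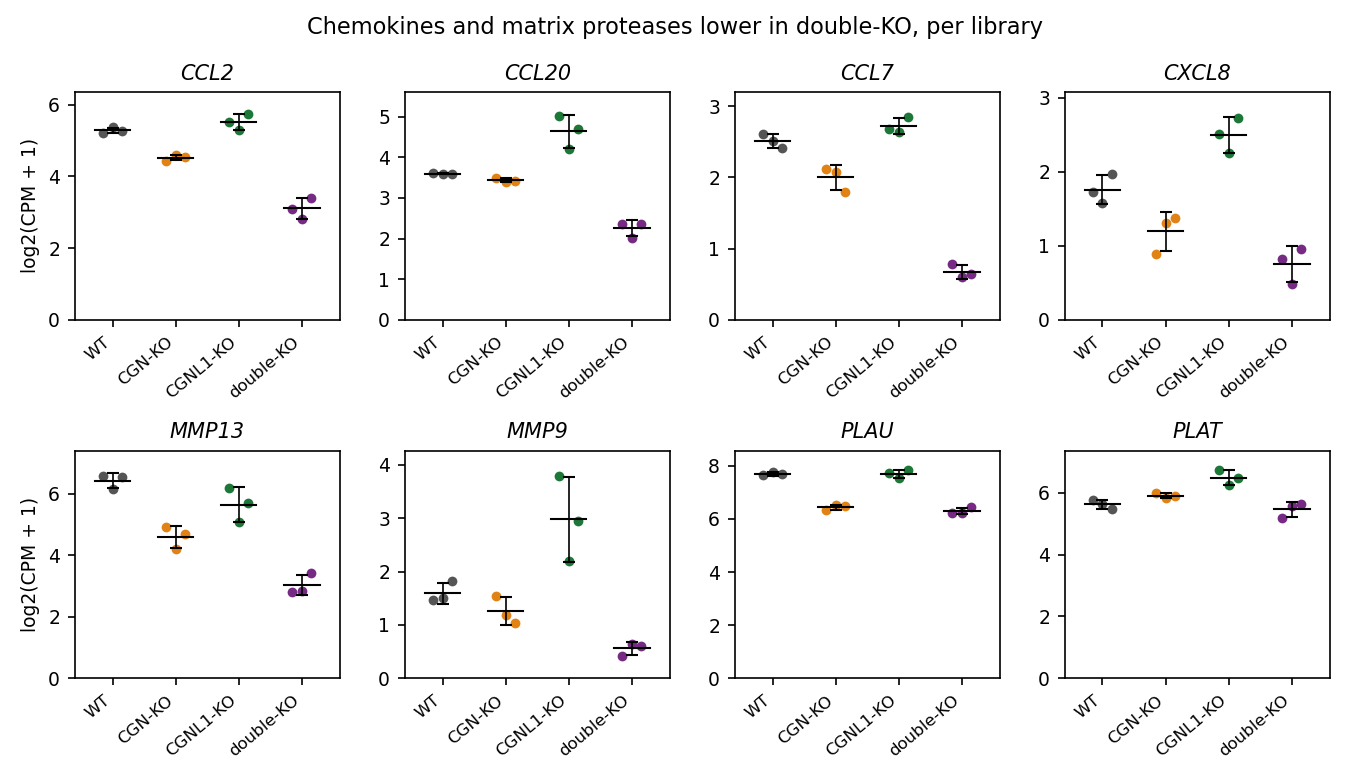
Each panel shows 1 gene with the level in log2(CPM + 1) on the vertical axis for the 3 libraries (points) of WT, CGN-KO, CGNL1-KO, and double-KO cells, with the mean (line) and SD (bar). CCL2 lies at 6.03 to 9.62 CPM in double-KO and 38.5 to 52.2 CPM in CGNL1-KO libraries, and PLAU has close levels in both lines that lack CGN (means of 78.1 and 86.1 CPM).

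Interferon-stimulated genes, the antiviral effectors that cells switch on upon sensing interferon, were lower as a group but by small amounts. Of 36 tested members, 20 were lower (55.6%, against 6.29% of all genes) and 0 were higher at any fold, and the median log2 difference was -0.32. By sign alone, 35 of the 36 were lower, against 49.6% of all genes tested, and 31 had their lowest mean of the 4 genotypes in double-KO cells, as did 3542 of all 12650 genes. GBP5, a guanylate-binding protein, was the only member called, at 0.484, 0.284, and 0.528 CPM in double-KO and 5.86, 2.89, and 4.12 CPM in CGNL1-KO libraries (log2 difference of -1.85 ± 0.18, adjusted p = 4.23e-06). IRF1, a transcription factor of this response, was at 103, 102, and 112 CPM against 155, 154, and 164 CPM (-0.57 ± 0.05, adjusted p = 3.14e-06), and ISG20, an exonuclease, was at 2.62, 3.01, and 2.96 CPM against 8.77, 5.15, and 6.05 CPM (-0.96 ± 0.15, adjusted p = 5.71e-04). The double-KO values lay below all CGNL1-KO values for these 3 genes. Relative to WT, the median of the 36 genes was -0.57, -0.43, and -0.57 in the double-KO libraries and -0.08, -0.25, and -0.08 in the CGNL1-KO libraries. In the CGN-KO libraries it was -0.13, -0.31, and -0.25. The count of lower members was 13 without CGNL1-KO replicate 3 or without the unnumbered double-KO library, 14 without double-KO replicate 3, and 24 without CGNL1-KO replicate 2. DDX60, an interferon-induced helicase outside this list that was chosen after its values were seen, also fell (5.28 against 13.0 CPM, log2 difference of -1.17 ± 0.15). Between CGN-KO and WT, 18 of the 36 listed genes were lower and 1 was higher at any fold. Of all 12650 genes, 996 were lower and 1412 were higher in that comparison. The median log2 difference of the list was -0.27 there, and 29 members were lower by sign alone. The list was therefore lower in both comparisons.

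Proteases that break down extracellular matrix included the largest fall on the log2(CPM + 1) scale, that of MMP13, whose mean was 7.05-fold lower. As a ratio of means some scarcer genes fell more, among them TFAP2A (17.9-fold) and MMP9 (16.1-fold). MMP13, a collagenase, was at 6.05, 6.20, and 9.62 CPM in double-KO and 71.5, 32.5, and 50.3 CPM in CGNL1-KO libraries (log2 difference of -2.62 ± 0.23, adjusted p = 1.94e-06). MMP9, a gelatinase, was at 0.339, 0.569, and 0.528 CPM against 12.8, 3.57, and 6.74 CPM (-2.41 ± 0.27, adjusted p = 2.18e-05). The CGNL1-KO libraries varied more than 2-fold among themselves for both genes, yet none came near the double-KO values. PLAU, the urokinase that turns plasminogen into plasmin, was at 74.6, 73.3, and 86.5 CPM against 210, 184, and 229 CPM (-1.40 ± 0.08, adjusted p = 1.69e-08). PLAT, the tissue-type activator of plasminogen, was at 35.3, 46.2, and 49.0 CPM against 106, 74.8, and 88.1 CPM (-1.02 ± 0.12, adjusted p = 3.41e-05), and it was under the 2-fold threshold without CGNL1-KO replicate 1 or without the unnumbered double-KO library. The metalloproteinase ADAMTS1 rose, from 22.5, 25.5, and 20.7 CPM in CGNL1-KO to 53.0, 48.6, and 49.1 CPM in double-KO libraries (1.10 ± 0.10, adjusted p = 4.03e-06). Of 33 matrix proteases and inhibitors tested, 7 were lower (21.2%, against 6.29% of all genes) and 2 were higher (6.06%, against 8.12%) at any fold. The other higher member was ADAM10 (248 against 220 CPM, adjusted p = 0.027). The median of the list was -0.11. The lower count was 6 or 10 when 1 library was left out, with 10 without CGNL1-KO replicate 2, and the higher count was then 1 or 2.

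The other large falls were of unrelated kinds. TFAP2A, a transcription factor of surface ectoderm and epithelia, was at 0.581, 0.398, and 0.203 CPM in double-KO and 8.42, 6.36, and 6.37 CPM in CGNL1-KO libraries (log2 difference of -2.53 ± 0.15, adjusted p = 1.77e-08). PDE1A, a calmodulin-dependent phosphodiesterase, was at 0.339, 0.284, and 0.0812 CPM against 4.88, 5.24, and 4.98 CPM (-2.29 ± 0.15, adjusted p = 7.03e-08), and the lowest of these double-KO values rests on 2 reads. Both genes were near the limit of detection in every double-KO library and present in every CGNL1-KO library. PPFIBP2, a liprin, was at 3.05, 2.96, and 3.004 CPM against 13.3, 11.1, and 11.9 CPM. NXPH2, a neurexophilin, was at 1.40, 1.37, and 0.812 CPM against 5.46, 6.77, and 5.03 CPM, and GPNMB, a transmembrane glycoprotein, at 1.45, 1.14, and 1.22 CPM against 5.75, 5.46, and 6.58 CPM. These 3 genes differed by -1.70 ± 0.11, -1.63 ± 0.13, and -1.61 ± 0.12 on the log2 scale (adjusted p = 4.55e-08, 7.29e-07, and 1.90e-07). The unnamed loci LOC111091706 (1.54 against 7.75 CPM) and LOC102155886 (2.18 against 10.2 CPM) completed the 15 largest falls. Among the remaining calls, chosen after their values were seen, were S100A14, an epithelial calcium-binding protein (78.7 against 188 CPM), the protease inhibitor SLPI (0.273 against 2.20 CPM), SLC7A11, the cystine transporter (5.36 against 12.4 CPM), and C1S, a complement protease (29.6 against 62.4 CPM). Of these, SLC7A11 and C1S were under the 2-fold threshold without CGNL1-KO replicate 1 or without the unnumbered double-KO library.

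Among the genes that rose, FBP2, the muscle-type fructose bisphosphatase, was at 12.6, 13.8, and 12.8 CPM in double-KO and 0.929, 0.858, and 1.18 CPM in CGNL1-KO libraries (log2 difference of 2.83 ± 0.14, adjusted p = 5.33e-09). TRPA1, a channel opened by irritants, was at 87.2, 98.1, and 100.2 CPM against 12.2, 14.3, and 13.6 CPM (2.74 ± 0.07, adjusted p = 6.78e-13). BASP1, which binds phosphoinositides and calmodulin at the plasma membrane, was at 13.1, 14.5, and 14.5 CPM against 1.10, 2.12, and 1.71 CPM (2.52 ± 0.15, adjusted p = 2.68e-08). FBP2 and TRPA1 varied little among the libraries of a line, while BASP1 ranged from 1.10 to 2.12 CPM in CGNL1-KO libraries. All 3 were far apart between the lines. SDSL, a serine dehydratase, was at 13.6, 14.96, and 17.7 CPM against 3.72, 2.75, and 2.73 CPM, and STRA6, the receptor for retinol-binding protein, at 55.3, 60.6, and 63.1 CPM against 18.2, 17.6, and 15.9 CPM. Their differences were 2.02 ± 0.17 and 1.74 ± 0.10 (adjusted p = 1.09e-06 and 2.14e-08).

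The next rises were smaller and the groups remained apart. MELTF, an iron-binding surface protein, was at 10.6, 11.8, and 12.9 CPM in double-KO and 4.88, 3.20, and 3.05 CPM in CGNL1-KO libraries. CYP1A1, a monooxygenase induced by the aryl hydrocarbon receptor, was at 8.19, 6.996, and 6.86 CPM against 2.38, 1.62, and 2.19 CPM. EML1, a microtubule-binding protein, was at 9.49, 9.38, and 7.67 CPM against 2.61, 3.02, and 2.73 CPM. EPHA4, a receptor for ephrins, averaged 9.39 against 3.12 CPM, and SNCG, a synuclein, averaged 49.8 against 19.2 CPM. The secreted proteins FSTL1 (2.45 against 0.367 CPM) and MMRN2 (10.1 against 3.55 CPM), the actin-nucleating formin FHOD3 (10.7 against 3.85 CPM), and the locus LOC106559288 (5.11 against 1.29 CPM) completed the 15 largest. Their differences ranged from 1.25 (FHOD3) to 1.46 (MELTF), with adjusted p from 2.73e-07 (SNCG) to 8.04e-05 (MMRN2). Further calls included the matrix proteoglycan VCAN (234 against 109 CPM), the matrix protein EFEMP1 (32.6 against 13.6 CPM), ID3, an inhibitor of basic helix-loop-helix factors (15.6 against 6.96 CPM), and NEK6, a mitotic kinase (48.0 against 21.3 CPM), which were chosen after their values were seen. ID3 was under the 2-fold threshold without CGNL1-KO replicate 2.

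**Figure D3:**
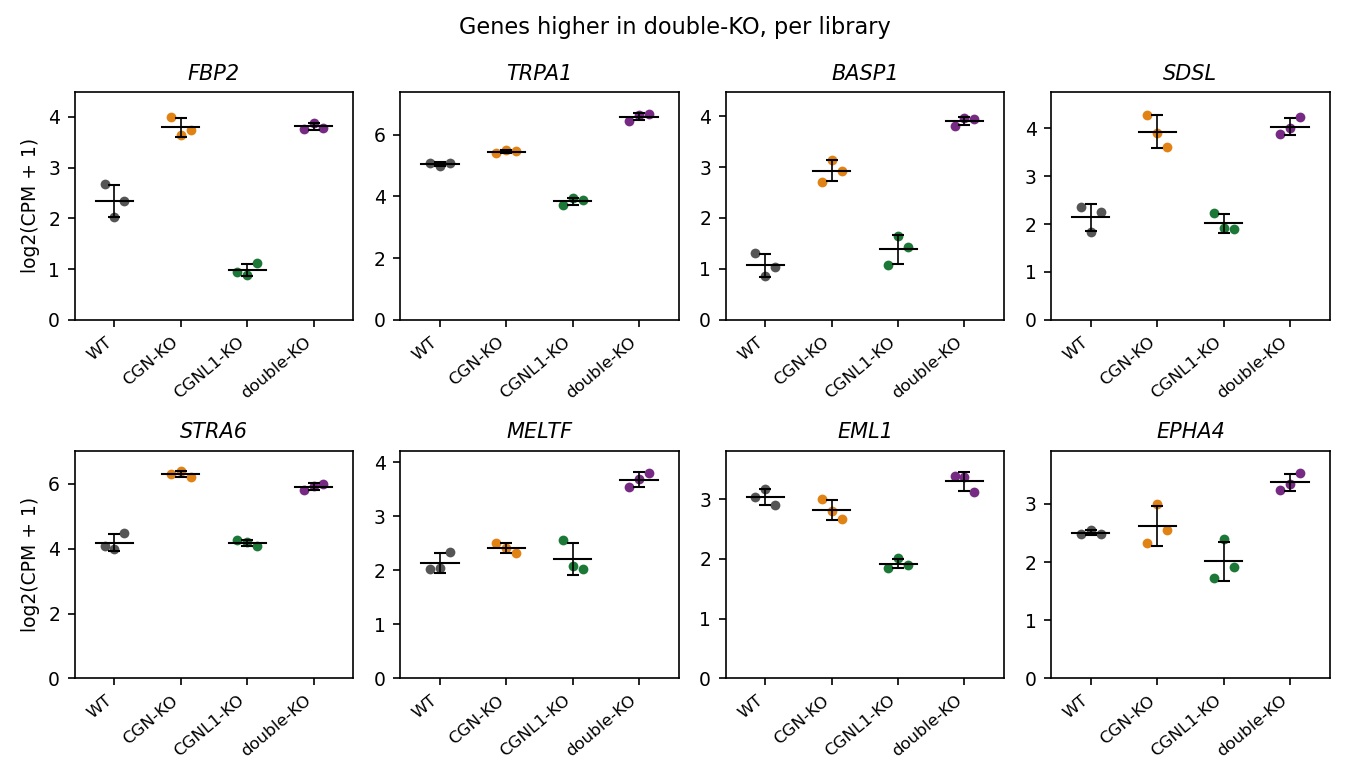
Each panel shows 1 gene with the level in log2(CPM + 1) on the vertical axis for the 3 libraries (points) of WT, CGN-KO, CGNL1-KO, and double-KO cells, with the mean (line) and SD (bar). SDSL and STRA6 have close means in CGN-KO and double-KO cells (14.5 and 15.4 CPM, 78.0 and 59.7 CPM), while TRPA1 averages 42.9 CPM in CGN-KO and 95.2 CPM in double-KO cells.

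None of the 9 claudins tested, the pore and barrier proteins of tight junctions, and none of the 22 tight junction scaffolds and membrane proteins passed the adjusted p. The claudins differed by -0.17 to 0.48 and the scaffolds by -0.19 to 0.15 on the log2 scale. Without double-KO replicate 3, or with libraries scaled to their totals, 1 claudin was higher. TJP1, which encodes ZO-1, was at 130, 136, and 136 CPM in double-KO and 131, 136, and 141 CPM in CGNL1-KO libraries (-0.03 ± 0.06, adjusted p = 0.818). TJP3, which encodes ZO-3, differed by -0.10 ± 0.11, and ARHGEF2, which encodes the RhoA activator GEF-H1, by -0.01 ± 0.06. The groups overlapped for all 3 genes.

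Of 22 adherens junction genes, 4 were lower (18.2%, against 6.29% of all genes) and 0 were higher at any fold, or 2 were higher without CGNL1-KO replicate 1. CDH3, which encodes P-cadherin, was at 56.3, 53.9, and 59.4 CPM in double-KO and 106, 99.0, and 99.9 CPM in CGNL1-KO libraries (-0.84 ± 0.07, adjusted p = 8.64e-07). CDH1, which encodes E-cadherin, averaged 999 against 1295 CPM (-0.37 ± 0.06, adjusted p = 0.00108), and LIMA1, an actin-binding partner of α-catenin, averaged 177 against 231 CPM (-0.37 ± 0.08, adjusted p = 0.00441). These cadherin groups did not overlap. The genes for afadin (AFDN, -0.03 ± 0.06) and PLEKHA7 (0.15 ± 0.12) had overlapping values, and that for the microtubule-anchoring CAMSAP3 (25.25 against 20.47 CPM, 0.29 ± 0.09) missed the threshold at an adjusted p of 0.0523 and passed it under 6 of the alternatives, with adjusted p from 0.0171 to 0.0491. AFDN lies on the chromosome that holds MYH14, whose median was raised, and with the median of each chromosome subtracted it was lower (-0.22, adjusted p = 0.022). Of 10 desmosomal genes, DSC3 was lower (26.4 against 37.6 CPM) and PKP3 was higher (126 against 89.7 CPM, not with the median of each chromosome subtracted, adjusted p = 0.183). Of 21 polarity genes, SCRIB and MARK2 were higher by 0.37 and 0.27 and PARD6B was lower by 0.30 on the log2 scale. MARK2 did not pass with the median of each chromosome subtracted (adjusted p = 0.849), and SCRIB and PARD6B did not pass without double-KO replicate 3 (adjusted p = 0.0519 and 0.0539).

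Among the 7 NM2 chains tested, both genes that differed encode light chains. MYL9, a regulatory light chain, was at 39.2, 36.7, and 36.6 CPM in double-KO and 19.97, 23.97, and 21.03 CPM in CGNL1-KO libraries (0.77 ± 0.10, adjusted p = 6.97e-05). MYL6B, an essential light chain, was at 33.8, 37.4, and 32.0 CPM against 23.3, 22.7, and 22.6 CPM (0.56 ± 0.07, adjusted p = 6.75e-05). The heavy chains MYH9 (NM2A, 0.08 ± 0.09), MYH10 (NM2B, 0.04 ± 0.06), and MYH14 (NM2C, 0.07 ± 0.10) had overlapping values, and without CGNL1-KO replicate 1 MYH14 was higher by 0.23 (adjusted p = 0.0319). The median of the whole chromosome that holds MYH14 was then higher by 0.20. Of 33 genes of RhoA and myosin regulation, 4 were lower (12.1%) and 3 were higher (9.09%), the latter share close to the 8.12% of all genes. They were led by the antagonist RND1 (4.57 against 9.20 CPM) and the GTPase-activating protein ARHGAP35 (109 against 88.5 CPM), and the kinase ROCK2 was lower (82.6 against 103 CPM). ARHGAP35 did not pass with the median of each chromosome subtracted (adjusted p = 0.255). The count of lower genes was 2 without CGNL1-KO replicate 3 or double-KO replicate 2 or 3, and that of higher genes was 5 without CGNL1-KO replicate 1. Of 43 actin filament genes, 4 were lower and 4 were higher (9.30% each), close to the shares of all genes, and BASP1 was the only one called. Targets of the transcription factor SRF and its coactivator MRTF were higher for 5 (21.7%) and lower for 1 (4.35%) of 23 genes, with EGR1 higher (466 against 369 CPM). Targets of YAP were higher for 1 (4.76%) and lower for 3 (14.3%) of 21 genes. The shares of all genes were 8.12% higher and 6.29% lower. ANKRD1, a YAP target, was at 105, 101, and 127 CPM against 187, 210, and 210 CPM (-0.87 ± 0.15, adjusted p = 9.67e-04). When 1 library was left out, the count of higher SRF targets ranged from 3 (without CGNL1-KO replicate 3) to 8 (without CGNL1-KO replicate 1), that of higher YAP targets was 3 without CGNL1-KO replicate 1, and that of each direction of actin filament genes was 1 without CGNL1-KO replicate 3.

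COL4A1 and COL4A2, chains of a basement membrane collagen, were higher in double-KO cells, and 2 chains of an epithelial laminin were lower. Of 43 genes of the extracellular matrix and its receptors, 10 were higher and 6 were lower at any fold. COL4A1, a chain of type IV collagen, was at 187, 177, and 198 CPM in double-KO and 93.8, 105, and 93.5 CPM in CGNL1-KO libraries (0.93 ± 0.09, adjusted p = 3.69e-06), and its partner COL4A2 was at 154, 145, and 168 CPM against 93.7, 103, and 95.5 CPM (0.67 ± 0.08, adjusted p = 6.75e-05). Both chains were higher in every double-KO library. FN1 (fibronectin) averaged 856 against 574 CPM, and LAMA3 and LAMB3, chains of laminin-332 that were chosen after their values were seen, averaged 222 against 267 CPM and 250 against 328 CPM. ITGA7, an integrin that binds laminin, averaged 3.002 against 6.26 CPM (-0.85 ± 0.12, adjusted p = 1.86e-04). Of 14 genes of mesenchymal transition, 5 were higher (35.7%, against 8.12% of all genes) and 1 was lower (7.14%, close to the share of all genes). TGFBI, a matrix protein induced by TGF-β, was called at 113, 104, and 107 CPM against 47.6, 58.3, and 54.7 CPM (1.01 ± 0.07, adjusted p = 2.10e-07). TGFBI was under the 2-fold threshold without CGNL1-KO replicate 1 or without the unnumbered double-KO library. No transcription factor of this list was among the 6, whose other members were LOXL2, TGFB1, VIM, FN1, and SPARC. The count of higher genes was 3 without CGNL1-KO replicate 3 or double-KO replicate 2 or 3, and that of lower genes was 2 without CGNL1-KO replicate 2.

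The keratins KRT14 and KRT16, known from stratified epithelium, were lower. KRT14 was at 33.0, 28.6, and 31.9 CPM in double-KO and 72.7, 72.7, and 71.8 CPM in CGNL1-KO libraries (-1.19 ± 0.08, adjusted p = 8.79e-08). KRT16 was at 66.0, 63.3, and 73.1 CPM against 160, 121, and 123 CPM (-0.98 ± 0.09, adjusted p = 3.58e-06). Of the 16 intermediate filament genes tested, 4 were lower (25%) and VIM (vimentin) was higher. The count of higher genes was 2 without CGNL1-KO replicate 2 and 0 without any 1 of the other libraries of both lines. KRT8 and KRT18, the keratins of simple epithelium, differed by 0.0012 and 0.0030 on the log2 scale. Of 26 genes of epithelial identity, 5 were lower (19.2%) and 3 were higher (11.5%), against 6.29% and 8.12% of all genes. Beside TFAP2A, the membrane glycoprotein PROM1 was called lower (0.965 against 3.099 CPM, adjusted p = 7.59e-04), though not without CGNL1-KO replicate 1 or without the unnumbered double-KO library. The count of lower genes was 3 without either of these, and that of higher genes was 1 without CGNL1-KO replicate 3 or double-KO replicate 2 or 3. IVL and LCE6A, genes of the cornified envelope chosen after their values were seen, fell as well (0.221 against 1.47 CPM, 5.91 against 13.6 CPM), IVL under the 2-fold threshold without CGNL1-KO replicate 2 or double-KO replicate 2.

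Signalling and metabolic lists showed small differences, mostly under 2-fold. In the Wnt pathway, 4 of 12 feedback genes were higher (33.3%, against 8.12% of all genes) and 0 were lower. DKK3 was at 13.5 against 6.58 CPM, APCDD1 at 13.5 against 7.85 CPM, and LGR6 at 2.42 against 1.05 CPM. The count was 4 without any 1 library. EGF was higher (64.0 against 33.8 CPM, 0.92 ± 0.15, adjusted p = 7.71e-04), as was ERBB4 of its receptor family (15.8 against 12.01 CPM), the latter not without double-KO replicate 3 (adjusted p = 0.0517). Of 35 genes of cholesterol and fatty acid synthesis, 11 were higher (31.4%) and 0 were lower, led by LSS (210 against 154 CPM), DHCR7 (193 against 143 CPM), and TM7SF2 (63.4 against 46.8 CPM). The genes that passed differed by at most 0.45 on the log2 scale, and DHCR7, TM7SF2, FADS2, and ACAT2 lie on the chromosomes that hold CTNND1 or MYH14, whose medians were raised. With the median of each chromosome subtracted, 7 were higher, and DHCR7 and TM7SF2 no longer passed (adjusted p = 0.061 and 0.124).

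Of 52 genes of S phase and mitosis, 8 were higher (15.4%) and 3 were lower (5.77%), against 8.12% and 6.29% of all genes tested. By sign alone 43 were higher, as were 6374 of all 12650 genes. The lower genes were CDKN1A, which encodes the cell cycle inhibitor p21 (353 against 527 CPM, -0.57 ± 0.06, adjusted p = 2.14e-05), and the D-type cyclins CCND3 (104 against 133 CPM) and CCND2 (314 against 392 CPM). The median of this list relative to WT was -0.16 in CGNL1-KO replicate 1 and 0.07 in replicate 2, and the count of higher genes was 6 without the first, 10 without the second, 4 without the unnumbered double-KO library, and 5 without either of the other double-KO libraries. Of 78 cytosolic ribosomal proteins, 16 were lower and 2 were higher (RPS14, 1202 against 942 CPM, and FAU). The lower count was 22 without CGNL1-KO replicate 1, 2 without CGNL1-KO replicate 3, 5 without double-KO replicate 2, and 4 without double-KO replicate 3. Of 61 genes of oxidative phosphorylation, 6 were higher and 4 were lower, close to the shares of all genes. The counts were 3 and 1 without CGNL1-KO replicate 3 or double-KO replicate 3, and 5 and 2 without double-KO replicate 2. With the median of each chromosome subtracted they were 1 and 2, and NDUFS3 and COX8A no longer passed (adjusted p = 0.803 and 0.14). Of 39 genes of glycolysis and hypoxia, 6 were lower (15.4%) and 2 were higher (5.13%). SLC2A1, the glucose transporter GLUT1, was at 277 against 353 CPM and CA12, a carbonic anhydrase, at 71.0 against 123 CPM. The higher count was 4 without CGNL1-KO replicate 1 and 1 without CGNL1-KO replicate 3 or any of the double-KO libraries, and the lower count was 4 to 8. Of 30 genes of ion and water transport, 4 were higher and 3 were lower, with 1 lower without the unnumbered library, without double-KO replicate 2, or with libraries scaled to their totals. NEDD4L, a ubiquitin ligase for sodium channels, was at 526, 526, and 536 CPM against 367, 387, and 381 CPM (0.48 ± 0.05, adjusted p = 8.82e-06), and its kinase SGK1 averaged 278 against 214 CPM, while WNK4, a kinase of salt transport, averaged 4.19 against 8.48 CPM. Of 27 genes of the unfolded protein and heat shock responses, 4 were lower (14.8%), led by DDIT3 (9.29 against 13.1 CPM). The count was 1 without CGNL1-KO replicate 1, 5 without CGNL1-KO replicate 2, and 2 without any 1 of the others. No septin was found under its symbol.

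**Figure D4:**
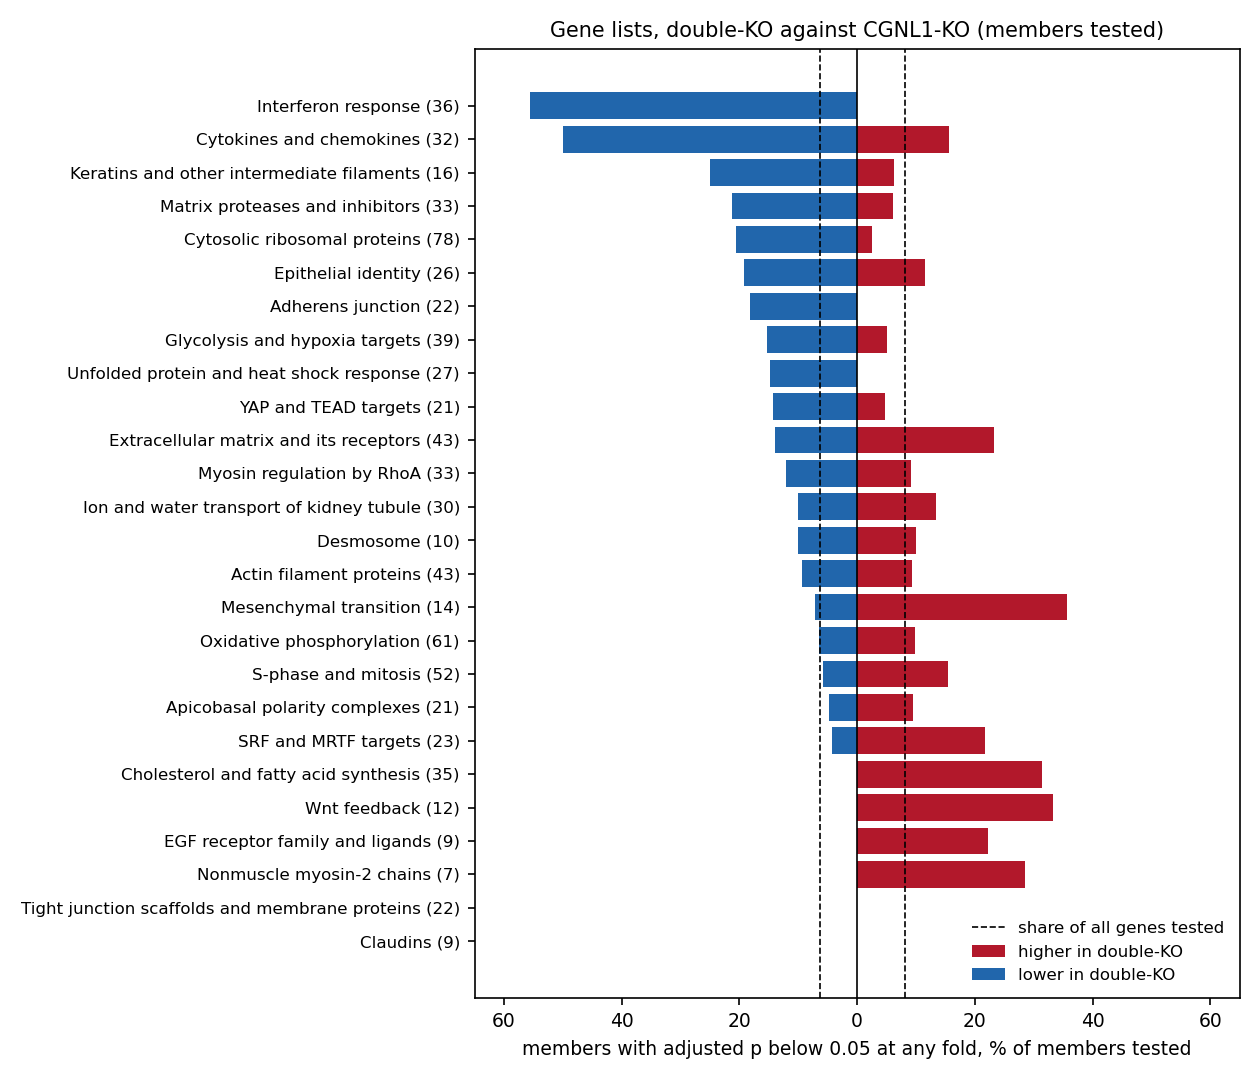
Bars give the share of each list's tested members (number in parentheses) with an adjusted p below 0.05 at any fold, higher (red, right) or lower (blue, left) in double-KO than in CGNL1-KO cells, and dashed lines give the same share of all genes tested (8.12% and 6.29%). Interferon response (20 of 36) and cytokines and chemokines (16 of 32) have the longest bars to the left, and claudins and tight junction scaffolds have none.

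The loss of CGN was next compared between cells without and with CGNL1, by setting double-KO minus CGNL1-KO beside CGN-KO minus WT. These 2 comparisons share no library. CGNL1 mRNA in CGN-KO cells was itself at 61.6% of the WT level, so CGNL1 was not at the same level on both sides of the second comparison. In CGN-KO cells 124 genes rose and 42 fell relative to WT (0.980% and 0.332% of the genes tested). Of the 88 genes called between double-KO and CGNL1-KO, 24 were also called in the same direction between CGN-KO and WT, 12 higher and 12 lower, which is 27.3% of the 88 and 14.5% of the 166 calls in CGN-KO cells. CGN itself is one of them. The higher genes called in both included BASP1, STRA6, SDSL, FBP2, SNCG, MMRN2, FSTL1, IL7R, ACKR3, and TGFBI, and the lower ones MMP13, TFAP2A, NXPH2, GPNMB, PLAU, GBP5, and TNIP3. For STRA6 the difference was 2.11 between CGN-KO and WT and 1.74 between double-KO and CGNL1-KO, for TFAP2A it was -2.43 and -2.53, and for PLAU it was -1.25 and -1.40. Across the 12650 genes, which are not independent replicates, the log2 differences of both comparisons correlated with r = 0.313 and rho = 0.245.

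The difference between both comparisons was tested for each gene in the same fit, and 206 genes passed at a size of at least 2-fold (1.63% of the genes tested), 34 with a positive and 172 with a negative difference. Among them were 26 of the 61 lower calls and 7 of the 27 higher calls. Chemokines were among them. CCL20 was at 24.5 CPM in CGNL1-KO and 3.79 CPM in double-KO cells, while it averaged 9.79 CPM in CGN-KO and 11.1 CPM in WT cells (difference of -2.22, adjusted p = 6.51e-06). For CCL2 the means were 45.0 and 7.74 CPM against 37.9 CPM in WT and 21.9 CPM in CGN-KO cells (-1.64, adjusted p = 2.19e-05). MMP9, CCL7, CXCL8, and CXCL10 differed by -2.08, -1.53, -1.18, and -1.36 in the same sense, so that all 6 had the more negative difference in the line without CGNL1. KRT14 (0.54 between CGN-KO and WT) and PROM1 (0.80) changed in opposite directions in the 2 comparisons. ADAMDEC1, a metalloproteinase-like protein named here as the only gene called in opposite directions, was at 17.4 CPM in CGNL1-KO and 6.33 CPM in double-KO, but 6.37 CPM in WT and 17.4 CPM in CGN-KO cells. On the higher side, TRPA1 rose by 0.41 between WT and CGN-KO and by 2.74 between CGNL1-KO and double-KO (difference of 2.33, adjusted p = 9.37e-10), and EML1, EPHA4, and MELTF did not pass between CGN-KO and WT (adjusted p = 0.229, 0.681, and 0.187). ACKR3 was the reverse case, rising by 3.75 in CGN-KO and by 1.22 in double-KO cells.

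The levels in WT cells were set beside those of both lines. Of the 61 lower genes, 39 had their highest mean of the 4 genotypes in CGNL1-KO cells, 58 had their lowest in double-KO cells, and for 43 the WT mean lay between both lines. These counts follow in part from how the genes were selected, and over all 12650 genes 2349 had their highest mean in CGNL1-KO cells and 3542 their lowest in double-KO cells. CCL20, MMP9, CXCL8, and CXCL10 are examples, with WT means of 11.1, 2.04, 2.40, and 1.82 CPM. Of the 27 higher genes, 17 had their lowest mean in CGNL1-KO cells and 19 their highest in double-KO cells. Over all 12650 genes, 3596 had their highest mean in double-KO cells, and these counts also follow in part from the selection. For the 17 genes, and for the 43 genes above, the share over all genes was not counted. TRPA1 (32.1 CPM in WT, 13.4 CPM in CGNL1-KO) and EML1 (7.196 and 2.79 CPM) were lower in CGNL1-KO than in WT cells, whereas STRA6 (17.4 and 17.2 CPM) and SDSL (3.46 and 3.07 CPM) were at close levels in both.

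**Figure D5:**
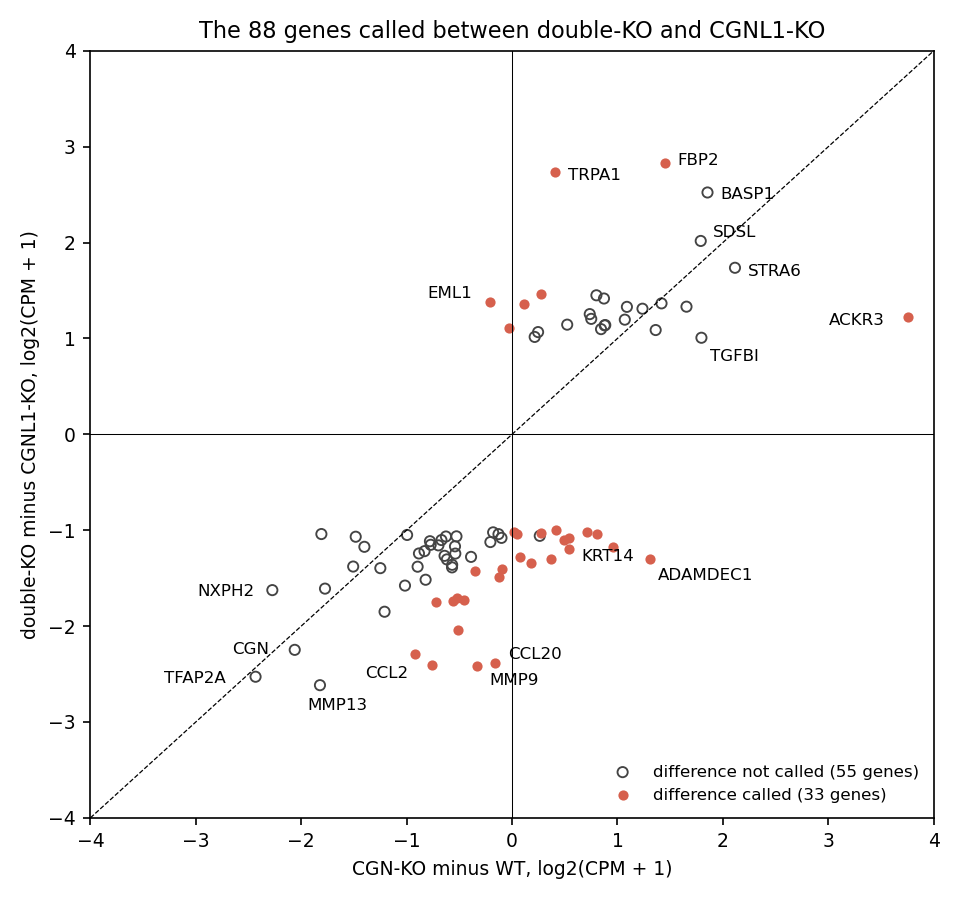
Each of the 88 genes called between double-KO and CGNL1-KO is placed by its log2 difference between CGN-KO and WT (horizontal) and between double-KO and CGNL1-KO (vertical), with the line of equal differences dashed. Filled points are the 33 genes for which the difference between both comparisons was called, among them TRPA1 (0.41 and 2.74) and CCL20 (-0.16 and -2.38), and genes near the line include TFAP2A and STRA6.

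Many of the small increases were shared by whole chromosomes. The median log2 difference of the 398 tested genes on the chromosome that holds CTNND1 was 0.25 ± 0.012 (SE, adjusted p = 4.29e-12 by limma over 39 chromosomes), and that of the 688 genes on the chromosome that holds MYH14 was 0.19 ± 0.010 (adjusted p = 2.15e-11), with 90.7% and 82.3% of their genes higher. In all 12 of the 39 chromosomes passed, and the others were shifted less, by 0.062 for 1 that was higher and by at most 0.069 for 9 that were lower. The chromosomes of CTNND1 and MYH14 together hold 9.24% of the placed genes but 47.9% of the placed genes that were higher at any fold (465 of 971). They hold 1 of the 26 placed genes called higher, FBP2, and 2 of the 58 placed genes called lower. With the median of each gene's chromosome subtracted, 89 genes were called, 82 of them among the 84 original calls that could be placed, while 576 genes were higher at any fold. Relative to WT, the median of the chromosome that holds MYH14 was 0.19, 0.19, and 0.22 in the double-KO libraries and 0.012, 0.018, and -0.003 in the CGN-KO libraries. That of the chromosome that holds CTNND1 was 0.30, 0.29, and 0.32 against 0.082, 0.11, and 0.089. The cause of these shifts was not tested, and the small increases on these chromosomes and the loss of CGN cannot be told apart in 1 line.

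Of the 20 tested genes on either side of CGN in gene order, 36 of 40 were lower in double-KO cells, with a median of -0.12 on the log2 scale. Of these 40 genes 7 passed the adjusted p at any fold, as did 1823 of all 12650 genes tested. The chromosome as a whole was lower by 0.069 (adjusted p = 1.32e-04), with 30.6% of its 389 genes higher. Of all 12650 genes tested, 6374 were higher and 6276 (49.6%) were lower. Of these neighbours, SELENBP1, a selenium-binding protein, and LCE6A and IVL were called lower, and they were singled out after their values were seen. SELENBP1 was under the 2-fold threshold without CGNL1-KO replicate 1 or double-KO replicate 2. SELENBP1 was at 33.8, 32.5, and 34.3 CPM in double-KO and 73.3, 65, and 66.4 CPM in CGNL1-KO libraries. It averaged 63.7 CPM in CGN-KO and 47.5 CPM in WT cells. Between CGN-KO and WT, the log2 differences of SELENBP1, LCE6A, and IVL were 0.42, -0.10, and 0.016. Around CGNL1, 27 of 40 neighbours were lower and 0 were called. The adjusted p was passed by 8 of these 40, beside 1823 of all 12650 genes, with 4 higher (ONECUT1, PYGO1, PRTG, and ADAM10) and 4 lower.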

How the data were processed

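The authors prepared stranded mRNA libraries, aligned single reads with STAR 2.7.0f to CanFam3.1, counted them per gene with HTSeq 0.9.1, and normalized them by library size in edgeR. The annotation release and the strand setting of the counting are not given in the sources used here. The deposited values are a signal in CPM scaled by TMM, 1 value per gene and library for 13672 genes. In each library 100% of values were whole multiples of 1 read (tolerance of 0.1 reads), which gave the reads per library. The methods state a filter of over 1 CPM in 3 libraries, which 1022 listed genes do not pass, so the filter was applied again. Dates stand in place of symbols for 16 genes, which were left so.

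Genes were compared with limma 3.58.1 (R 4.3.3) by linear models with moderated variances that follow a mean trend. Values were log2(CPM + 1), a pseudocount of 1 CPM, and all 4 genotypes entered 1 model with no blocking term. Calls needed a Benjamini-Hochberg adjusted p below 0.05 and a fold of at least 2. All adjusted p-values and standard errors are from this fit unless another tool is named. The difference of double-KO minus CGNL1-KO and CGN-KO minus WT was a contrast of the same fit. CGN and CGNL1 were also compared by exact permutation tests. Precision is limited by 3 libraries a genotype, and no interval was taken from read counts. Alternatives were pseudocounts of 0.25 and 3 CPM, no filter or over 5 CPM, scaling to library totals, edgeR 4.0.16 (quasi-likelihood test) and DESeq2 1.42.0 on the recovered reads, a fit of the compared genotypes, the replicate number as a block, leaving out each library, and subtracting the median of each chromosome.

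Genes were named by rule: CGN and CGNL1, the 15 largest rises and falls among calls whose groups did not overlap, members of each list that were called or had the smallest adjusted p (up to 3), genes of proteins named in the paper, and up to 10 genes called in both comparisons. Other genes are marked as chosen after their values were seen. The members, lists, and tests were chosen with earlier results of these data known. Chromosomes and gene order came from RefSeq genes of UU_Cfam_GSD_1.0, matched by symbol (11748 of 12650 genes, 92.9%), and no coordinates or sequences are given because the builds differ. On data simulated for this comparison (12650 genes), 200 genes above 5 CPM were changed by 1.5 or 2 on the log2 scale. From these, limma, edgeR, and DESeq2 each recovered 100 of 100 genes at either fold size and called 0 unchanged genes. Both sizes lay past the threshold for a call and no chromosome shift was simulated. The recovery of scarcer genes and of smaller changes was therefore not tested. Plots were drawn with matplotlib 3.10.9.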

Additional observations from a re-analysis of the deposited data

Results flagged for a closer look

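The effect of CGN loss differed between cells without and with CGNL1 for 206 genes, by a limma test of the difference between double-KO minus CGNL1-KO and CGN-KO minus WT (adjusted p below 0.05 and a size of at least 2-fold), 34 with a positive and 172 with a negative difference. Of the genes named by rule, 26 were among them, and the values that follow are this difference on the log2(CPM + 1) scale.

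Positive differences, with more gain upon CGN loss in the line without CGNL1, were found for TRPA1 (2.33), EML1 (1.59), FBP2 (1.38), EPHA4 (1.24), MELTF (1.18), and ADAMTS1 (1.14). Negative differences were found for the chemokines CCL20 (-2.22), CCL2 (-1.64), CCL7 (-1.53), CXCL10 (-1.36), and CXCL8 (-1.18), for the receptor ACKR3 (-2.53), and for the proteases MMP9 (-2.08) and PLAT (-1.30). They were also found for the keratins KRT14 (-1.73) and KRT16 (-1.58), the surface proteins PROM1 (-1.84) and ITGA7 (-1.49), and the hypoxia-related genes EPAS1 (-2.08) and CA12 (-1.62). The remaining ones were PDE1A (-1.38), ANKRD1 (-1.28), RND1 (-1.28), LOC102155886 (-1.27), PPFIBP2 (-1.18), and LOC111091706 (-1.02).

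For EPAS1 and ACKR3 the negative value comes from a larger rise in CGN-KO cells, as EPAS1 averaged 10.4 CPM in WT, 67.8 CPM in CGN-KO, 36.5 CPM in CGNL1-KO, and 52.8 CPM in double-KO cells. Each genotype is 1 line, and the clone and the genotype cannot be told apart.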

How the results depend on the processing

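The 88 calls between double-KO and CGNL1-KO kept their direction under every alternative in which they were tested, and all 88 were among the calls of edgeR, of DESeq2, of a pseudocount of 0.25 CPM, of no filter, and of a fit of the compared genotypes alone. The number of calls moved. A smaller pseudocount by construction gives scarce genes larger differences, and for the tools the cause was not tested. The number was 159 with a pseudocount of 0.25 CPM (61 higher, 98 lower), 39 with 3 CPM (16 and 23), 194 with edgeR (78 and 116), and 199 with DESeq2 (76 and 123), and 37 genes were lower above 5 CPM. The share of lower genes was 69.3% in the main comparison, 65.1% with libraries scaled to their totals (which moved the median of all genes to 0.034), 59.8% with edgeR, and 59.0% with 3 CPM. Calls in CGN-KO against WT numbered 265 (0.25 CPM), 91 (3 CPM), 309 (edgeR), and 305 (DESeq2). The differences between both comparisons numbered 103 (3 CPM), 136 (over 5 CPM), and 310 (DESeq2), and the calls of the same sign in both numbered 48, 12, 64, and 66 (0.25 CPM, 3 CPM, edgeR, DESeq2).

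Without 1 library at a time, 81 to 111 genes were called, 27 to 34 higher and 47 to 84 lower, with 70 to 84 of the 88 among them. At any fold 624 to 1051 genes were higher and 482 to 1009 were lower, the fewest without CGNL1-KO replicate 3. The counts were 681 and 499 without the unnumbered library, 627 and 497 without double-KO replicate 3, and 703 and 544 without double-KO replicate 2. Calls in CGN-KO against WT were 152 to 175, differences between both comparisons 179 to 256, and calls of the same sign 22 to 26. Without CGNL1-KO replicate 1, 18 of the 88 genes were no longer called and 1, LOC106559420, lost its adjusted p. With the median of each chromosome subtracted, 576 genes were higher at any fold, and CFL1, on the chromosome that holds CTNND1, turned to -0.021 (adjusted p = 0.860).

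The deviations of same-numbered double-KO and CGNL1-KO libraries correlated at -0.235 and -0.124 (numbers 2 and 3), and those of the other pairs at -0.223 to 0.209. Between CGN-KO and WT, same-numbered libraries correlated at 0.373, 0.318, and -0.0822 (numbers 1 to 3), and the other pairs at -0.444 to 0.259. Whether libraries of the same number were handled together was not tested. With the number as a block and the unnumbered library left out, 87 genes were called, 76 of them among the 88. Genes under 5 CPM in both lines, 24 of the 88, are limited most by depth.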
